A study of Arabidopsis thaliana with 5 samples.

Results

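The genes described here had higher signals in every array of the *ask1* mutant than in every array of its wild type L*er*. Probe sets, which stand for genes on the array, were chosen by their measured signals: one was included when the lowest of its 3 *ask1* values lay at least 0.6 above the higher of its 2 L*er* values on the log2 scale and the L*er* values differed by under 0.8. Of 22746 probe sets on the array, 68 (0.299%) met these limits. With *ask1* and L*er* exchanged in the limits, 17 (0.0747%) lay lower in every *ask1* array. The genes *DFR*, AT4G14090, *UF3GT*, *UGT78D2*, AT5G15950, AT5G62730, AT2G40460 and *HYH* were set aside by name. Of these 8 genes, 5 had met the limits, which left 63 probe sets. Because the limits use the difference between the genotypes itself, the values of these 63 probe sets are a description, and no test of that difference is given for them.

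The samples were unopened flower buds of soil-grown *Arabidopsis thaliana*, with total RNA hybridized to Affymetrix ATH1 arrays, which measure a transcript by a set of short probes. One group held 3 arrays of plants labelled *ask1*-/- and the other 2 arrays of L*er* wild type. According to the methods the mutation is in the Landsberg *erecta* background, so both groups share that ecotype. The mutant plants, offspring of heterozygotes, were recognised by how they looked, and each array sampled whole bud clusters, so buds of many stages are mixed with the meristem. The methods count more L*er* arrays than the 2 analysed here. The mutants have fewer or smaller petals and sterile anthers, so a difference in RNA per cell and a difference in the make-up of the buds cannot be told apart.

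*ASK1* encodes a SKP1-like subunit of SCF ubiquitin ligases, which joins the cullin to an F-box protein that binds the substrate. These ligases mark proteins for the proteasome and take part in auxin and jasmonate signaling, flower development and male meiosis. The ligase acts on proteins, so a raised RNA level in such a mutant is not a direct measurement of its action. No probe set is paired with *ASK1* in the gene table used here, so the mutation was not checked here by the RNA of the mutated gene. The study itself counts *ASK1* among its genes down-regulated in *ask1*.

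Of the 63 probe sets, 13 are paired with a single gene, 1 with several genes and 49 with none. The share without a gene name was 77.8%, against 38.4% of all probe sets, so the named genes cover a small and uneven sample of the group. Among probe sets with 1 gene 0.133% met the limits, and among probe sets with no gene 0.561%. Of the 63 probe sets, 8 (12.7%) carry a suffix that marks probes shared between transcripts, against 4.66% of all, and for those the gene that gave the signal is uncertain. No named gene had a second single-gene probe set that could be set beside the first.

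The arrays of one genotype were not equally alike. *ask1* replicates 1 and 3 had 24 probe sets at least 2-fold apart, whereas *ask1* replicate 2 had 510 and 543 against them and 411 and 360 against L*er* replicates 1 and 2. The L*er* replicates had 292. The median log2 signal lay between 7.07 and 7.18 on the 5 arrays. All 63 probe sets still met the limits without any 1 array, as leaving out an array can only loosen them. The total, again without the genes set aside, grew to 204 without *ask1* replicate 2, to 257 without L*er* replicate 1 and to 174 without L*er* replicate 2. All 3 *ask1* values lay above both L*er* values in 10.1% of all probe sets, so separation of the arrays without the 0.6 limit is common in these data.

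The group means of the 63 probe sets differed by 0.70 to 3.25 on the log2 scale, with a median of 1.22, or 2.33-fold. In 44 of them (69.8%) the *ask1* mean was at least 2-fold higher, as it was in 0.528% of all probe sets. The median difference over all 22746 probe sets was -0.01. As background for the whole array, limma called 1 probe set (0.0044%) higher and 2 (0.00879%) lower in *ask1* at an adjusted p under 0.05, and 3.95% higher and 2.99% lower at an unadjusted p under 0.05. The lowest *ask1* value lay above the highest L*er* value by up to 1.97, and by at least 1 in 20 probe sets. The L*er* means of the 63 ran from 3.79 to 11.82 with a median of 7.13, which was also the median of all probe sets. In 4 probe sets the L*er* mean was under 5, a level near background, where a ratio understates or blurs the difference.

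**Figure D1:**
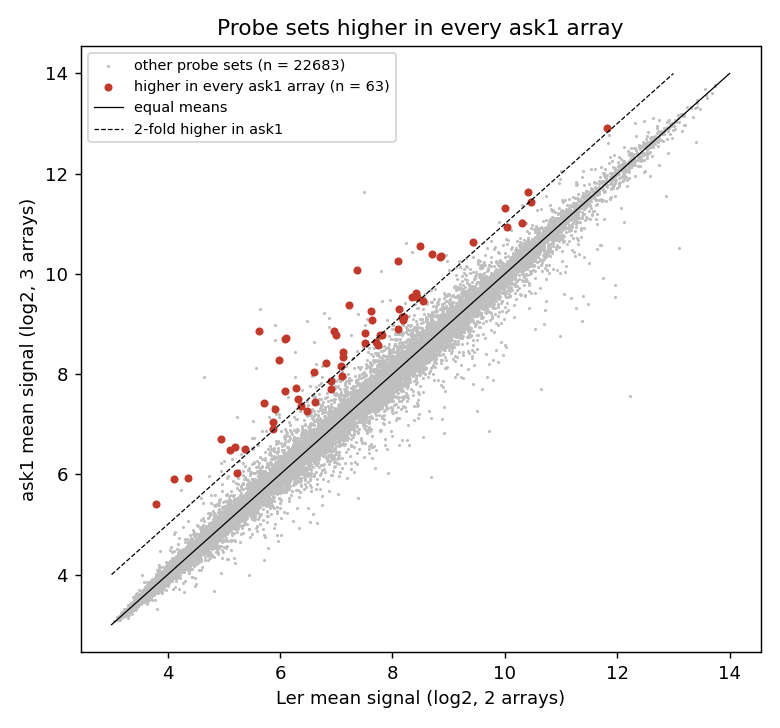
Mean log2 signal of each probe set in L*er* (horizontal axis, 2 arrays) and in *ask1* (vertical axis, 3 arrays). The 63 probe sets higher in every *ask1* array (red) lie above the line of equal means, and 44 of them lie on or above the dashed 2-fold line.

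The unnamed probe sets 250665_at and 253666_at had the widest gaps between the genotypes. Probe set 250665_at measured 8.17, 9.61 and 8.31 in the mutant, in the order of replicate number used throughout, and 5.97 and 6.20 in L*er*, a difference of 2.61, with *ask1* replicate 2 the highest. Probe set 253666_at measured 8.75, 8.84 and 8.96 against 6.85 and 7.07. The *ask1* arrays of 253666_at lay within 0.21 of each other, so its difference of 1.89 was nearly the same in each of them. Of the 12 widest gaps, 4 belonged to the named genes AT5G12110, AT1G35612, AT4G03156 and AT3G17130, and 8 to unnamed probe sets.

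Beyond the pair above, the 6 unnamed probe sets among these 12 fall into steady and uneven ones. Probe set 263739_at measured 8.74, 8.81 and 8.82 in *ask1* and 7.34 and 6.66 in L*er*. Probe set 247323_at measured 9.38, 9.30 and 9.13 against 7.48 and 7.77, and 261033_at 8.04, 7.91 and 8.19 against 6.52 and 6.68. Probe set 248160_at measured 7.39, 7.17 and 7.35 against 5.77 and 6.04. In these 4 the *ask1* arrays were close together, with ranges between 0.07 and 0.28. Probe set 256245_at measured 10.82, 8.89 and 10.54 against 7.54 and 7.18, so *ask1* replicate 2 lay between the other *ask1* arrays and L*er*. Probe set 251497_at measured 6.49, 7.20 and 6.42 against 4.77 and 5.11, with *ask1* replicate 2 the highest.

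Among the named genes AT5G12110 had the widest gap. The study's gene list describes it as a translation elongation factor of the EF1B type. EF1B exchanges the spent nucleotide on elongation factor EF1A, which carries aminoacyl-tRNA to the ribosome. Its signal was 10.77, 10.08 and 10.80 in *ask1* and 8.61 and 8.37 in L*er*, or 10.55 ± 0.41 (SD, n = 3) against 8.49 ± 0.17 (SD, n = 2). This is 4.16-fold on the linear scale, a bright and clear separation in which *ask1* replicate 2 was the lowest of the mutants. The one other EF1B subunit gene named here, AT5G19510, had means of 12.42 in *ask1* and 12.48 in L*er*, and its arrays overlapped.

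AT4G19430, described as unknown in the study's list, had the largest difference of group means among the named genes. It measured 10.74, 9.30 and 10.74 in *ask1* and 8.27 and 7.93 in L*er*, a difference of 2.16, or 4.47-fold. *ask1* replicate 2 lay 1.44 below the other *ask1* arrays and still 1.03 above the higher L*er* array. AT4G03156, described in the study's list as related to small GTPases, is a dim gene. It measured 5.10, 5.58 and 5.55 in *ask1* and 3.76 and 3.82 in L*er*, so its L*er* level was near background and the size of its difference, 1.62, is poorly set.

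The roles of the next 3 genes are background knowledge of their protein families, since the tables used here hold no description of them. AT3G17130 encodes a protein of the invertase and pectin methylesterase inhibitor family, whose members act on enzymes of sugar and cell wall metabolism. It measured 6.32, 6.49 and 6.66 in *ask1* and 5.05 and 5.18 in L*er*. AT4G24140 encodes an alpha/beta hydrolase related to BODYGUARD, a protein of cuticle formation. Its *ask1* arrays had a mean of 8.77 ± 0.26 (SD, n = 3) and a lowest value of 8.49, against 7.86 and 7.70 in L*er*. AT4G26790, of the GDSL lipase family, measured 8.67, 8.26 and 8.92 against 7.47 and 7.56. In *ask1* the means of the 3 genes were 2.59-fold, 1.98-fold and 2.14-fold those in L*er*. Of other BODYGUARD-like genes, AT5G17780 had a difference of 0.51 with all *ask1* arrays above L*er*, while AT5G41900 and AT5G17720 had 0.30 and 0.05 with arrays that overlapped.

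Of the glycosyltransferase genes, AT1G06000 and *UGT74D1* met the limits. AT1G06000 encodes an enzyme that attaches rhamnose to flavonols, which are colourless flavonoids. It measured 10.64, 10.35 and 10.94 in *ask1* and 9.48 and 9.39 in L*er*, a difference of 1.21. *UGT74D1* encodes a glucosyltransferase that accepts auxins and their derivatives. It measured 8.65, 8.67 and 9.03 against 7.87 and 7.75, a difference of 0.97. The L*er* means of AT1G06000 and *UGT74D1* were 9.43 and 7.81, against a median of 7.13 over all probe sets. Their L*er* arrays lay 0.09 and 0.12 apart, against a median of 0.16 over all probe sets.

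Relatives of these enzymes covered a wide range. *UGT78D2* and *UF3GT*, both set aside by name, had differences of 0.99 and 2.06 with every *ask1* array above L*er*, by 0.24 and 0.21. *UGT78D1*, whose product places rhamnose at another position of flavonols, had means of 10.25 in *ask1* and 9.55 in L*er*, and its lowest *ask1* array lay 0.44 above L*er*. *UGT78D3* had a difference of 0.50, and *UGT74B1* and *UGT74C1*, enzymes of glucosinolate synthesis, had 0.63 and 0.55. In these last 4 genes too every *ask1* array lay above both L*er* arrays, but by less than the 0.6 limit. *UGT74F1* had a difference of 0.08, and its arrays overlapped. Over all 48 probe sets whose symbol begins with UGT or is *UF3GT*, the differences ran from -0.53 to 2.06 with a median of 0.03. Every *ask1* array lay above L*er* in 11 of the 48, beside 10.1% of all probe sets. Of the 48, *UGT74D1* alone met the limits, but AT1G06000 has no such symbol and is not among them. These relatives were picked after their values had been seen.

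*AGL71* encodes a MADS-box protein close to SOC1. With *AGL42* and *AGL72* it is known to promote flowering at the shoot apex and in axillary meristems. It measured 5.96, 6.03 and 6.12 in *ask1* and 5.31 and 5.15 in L*er*, or 6.04 ± 0.08 (SD, n = 3) against 5.23 ± 0.12 (SD, n = 2). The difference, 0.81, was small in size and even across the mutant arrays. *AGL72*, the next gene on chromosome 5, measured 4.69, 4.92 and 4.91 against 4.11 and 4.14. It missed the limit of 0.6 by a narrow margin, with a gap of 0.55 and a difference of 0.72 at a dim signal. Of their relatives, *AGL42* had a difference of -0.38 and *AGL19* of -0.10.

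AT5G55620 and AT4G16140 have no description in the tables used here. AT5G55620 measured 8.93, 9.20 and 9.28 in *ask1* and 8.23 and 8.11 in L*er*. AT4G16140 measured 8.75, 8.94 and 8.99 against 8.06 and 8.13, with the narrowest gap of the named genes, 0.61. In both the arrays of each genotype were close together.

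**Figure D2:**
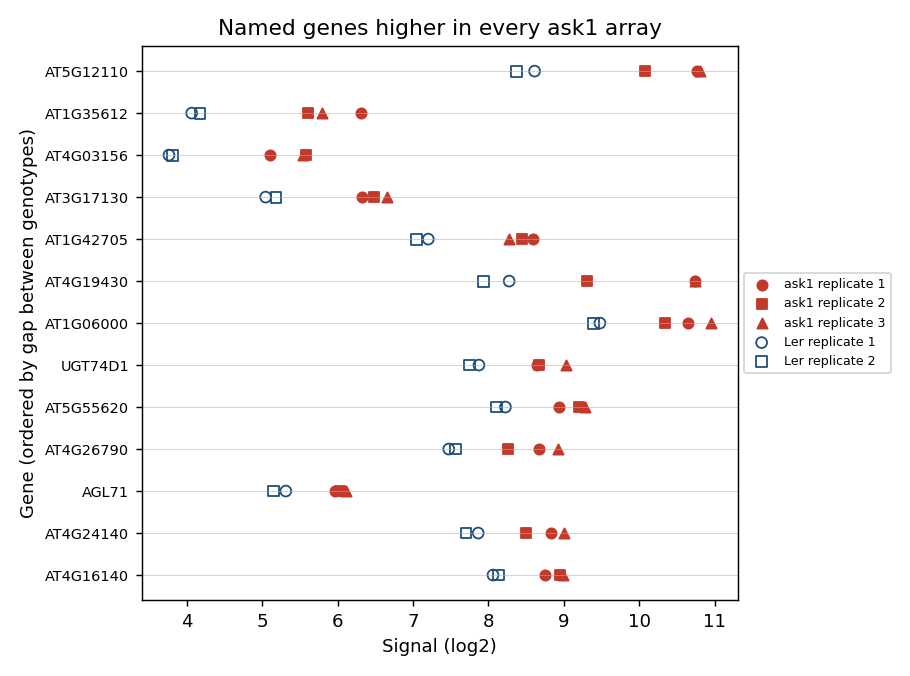
Log2 signal of the 13 named genes in each array, ordered from the widest gap between genotypes (top) to the narrowest. Filled red symbols are the 3 *ask1* arrays and open blue symbols the 2 L*er* arrays. AT4G19430 shows *ask1* replicate 2 apart from the other mutants, whereas the mutant arrays of *AGL71* lie almost on top of each other.

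Loci annotated as pseudogenes were the other kind of named members. AT1G35612, a pseudogene in RefSeq and in the study's list, measured 6.31, 5.61 and 5.79 in *ask1* and 4.07 and 4.17 in L*er*. Its L*er* arrays were dim and near background, so the size of its measured difference, 1.78 or 3.44-fold, is poorly set. AT1G42705, listed in the study as a transposable element and in RefSeq as a pseudogene, measured 8.58, 8.44 and 8.28 against 7.20 and 7.05. Its L*er* signal was well above background, and the difference was 1.31 or 2.48-fold. Its probe set is of the kind shared between transcripts, so other copies of the element may contribute to this signal.

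The other pseudogenes on the array give the setting of these 2 loci. Of 989 probe sets paired with a pseudogene, 2 (0.202%) met the limits, beside 0.129% of the 12443 paired with a protein-coding gene. The median difference over the 989 was 0.01, and 95.1% lay within 0.2 of 0. Their signals were dim, as 76.9% had a mean over the 5 arrays under 5, against 23.8% of all probe sets. A group mean at least 0.6 higher in *ask1* was seen in 6 of the 989 and a mean at least 0.6 lower in 0, where the lowest difference was -0.46. The 6 include the 2 loci that were chosen for being high. The shares of all probe sets past this cut-off were not counted, so no direction is read from these counts. The next in size was AT3G21040, at 7.46, 7.25 and 7.97 in *ask1* and 6.73 and 6.43 in L*er*, a gap of 0.51. AT3G21020 nearby on chromosome 3 measured 6.94, 6.75 and 6.77 against 5.77 and 6.46, so it too was higher in every *ask1* array, but by less than the limits ask. AT4G10580 and AT2G14650 had differences of 0.70 and 0.61, but their *ask1* replicate 1 lay below an L*er* array. The probe sets of both carry a suffix that marks shared probes. RefSeq gives these loci no text that names a transposon, so the count of transposon-like loci rests on the study's own label for AT1G42705. None of 69 probe sets of chloroplast genes met the limits, and their median difference was -0.28.

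**Figure D3:**
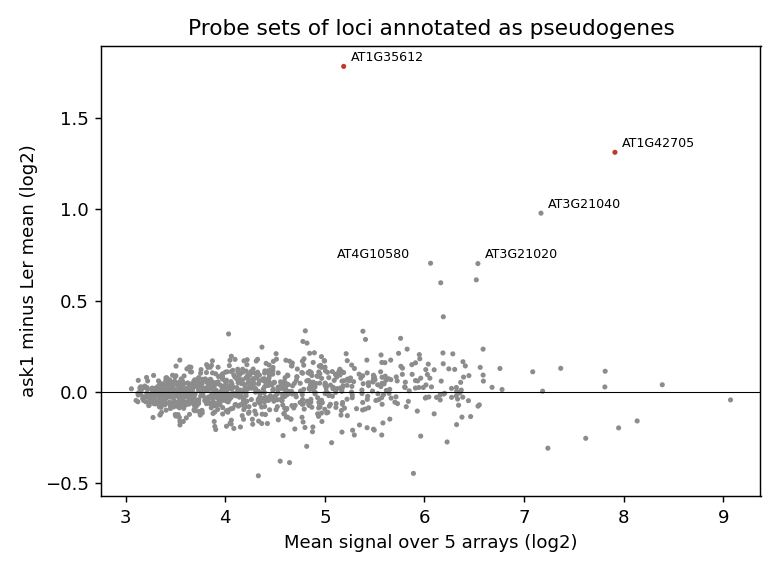
Difference of the *ask1* and L*er* means (vertical axis, log2) against the mean signal over 5 arrays (horizontal axis, log2) for 989 probe sets of loci annotated as pseudogenes. Most lie near 0 at signals under 5, and AT1G35612 and AT1G42705 (red) lie above the rest.

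The 13 named genes were spread over the 5 nuclear chromosomes, with 3 on chromosome 1, 1 on each of chromosomes 2 and 3, 5 on chromosome 4 and 3 on chromosome 5. No 2 of them lay within 100 kb of each other. The closest pair by order, AT4G24140 and AT4G26790, had 348 annotated genes between them. None of the 3 on chromosome 1 lay within 2 Mb of *ASK1*. The unnamed probe sets have no gene position, so their distance from *ASK1* was not examined. AT1G35612 and AT1G42705 lay in stretches rich in pseudogenes, which made up 35% and 59% of the 100 nearest annotated genes, against 12.8% of all nuclear genes. For the other 11 named genes this share was between 0% (AT4G24140) and 11% (AT4G19430).

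Numbers of ATH1 probe sets follow the map in long runs. Where both named neighbours in number lay on 1 chromosome, the probe set between them was on that chromosome in 13067 of 13104 cases (99.7%). By this estimate 46 of the other 50 probe sets could be placed on a chromosome, which gave 59 placed in all. Chromosome 4 held 13 of the 59 (22.0%) against 15.0% of all placed probe sets. Chromosome 1 held 15 (25.4% against 25.6%), chromosome 2 held 9 (15.3% against 16.5%), chromosome 3 held 10 (16.9% against 19.9%) and chromosome 5 held 12 (20.3% against 22.7%). These shares were not tested, and the placing is an estimate that names no gene.

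Pairs of members with adjoining numbers were few. The unnamed probe sets 245537_at and 245538_at have consecutive numbers and the same order of the mutant arrays. The first measured 9.18, 7.16 and 9.83 in *ask1* and 6.09 and 6.13 in L*er*, and the second 8.77, 6.90 and 9.18 against 5.86 and 6.12. In both, *ask1* replicate 2 was nearest to L*er*. Probe set 260956_at, next in number to AT1G06000, measured 11.58, 11.80 and 11.52 against 10.38 and 10.44, one of the brightest of the group. Its difference of 1.22 was close to the 1.21 of AT1G06000, but *ask1* replicate 2 was the highest array in 260956_at and the lowest mutant array in AT1G06000. Of 8240 pairs of named probe sets with consecutive numbers, 88.4% lay within 100 kb on 1 chromosome.

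Most map neighbours of the named genes did not share their differences. Within 100 kb on either side lay 332 other named probe sets, with a median difference of -0.01, the same as over all named probe sets. A mean at least 0.6 higher was found in 3 of them and one at least 0.6 lower in 9. The shares of all named probe sets past these cut-offs were not counted, so no direction is read from these counts. None met the limits, which is little different from the 0.133% of all probe sets with 1 gene that did. The 3 were *AGL72* beside *AGL71*, AT4G24380 near AT4G24140 with 0.80, and AT1G06100 near AT1G06000 with 0.62. *AGL72* alone of these adjoins its member gene with no annotated gene between.

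**Figure D4:**
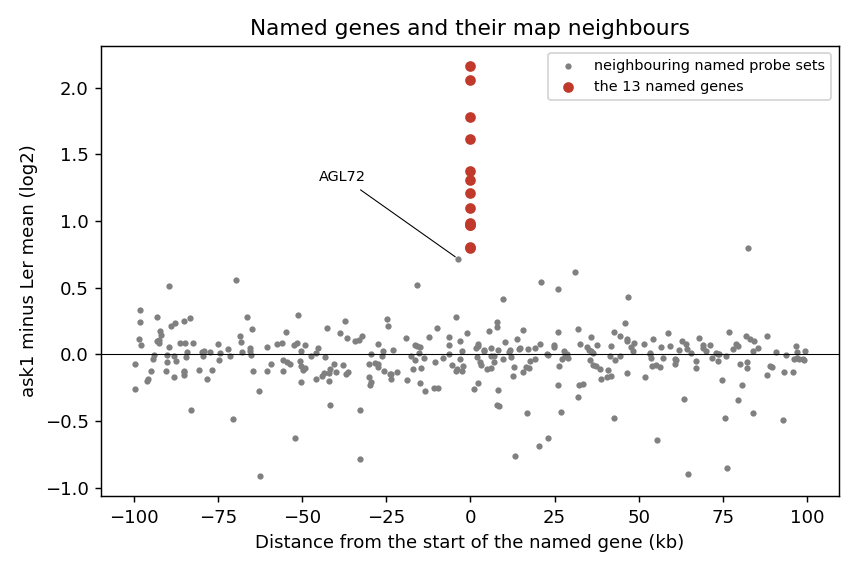
Difference of the *ask1* and L*er* means (vertical axis, log2) of the 13 named genes (red, at 0) and of the named probe sets within 100 kb (grey), by the distance of their starts (horizontal axis, kb). The neighbours centre on 0, and *AGL72* is the one neighbour close to a member with a difference above 0.6.

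The spread of the mutant arrays within the 63 probe sets comes from the same values that chose them, with no upper limit on that spread, so it is a description of the group. The 3 *ask1* values lay within 0.5 of each other in 34 (54.0%), against 87.1% of all probe sets, and the median range was 0.42 against 0.24. *ask1* replicate 2 lay more than 0.5 below both other mutants in 13 (20.6%), among them AT5G12110 and AT4G19430, against 1.94% of all probe sets. It lay more than 0.5 above both in 4 (6.35%), all without a gene name, against 4.26%. Of the 63, *ask1* replicate 2 had the lowest mutant value in 37, *ask1* replicate 1 in 19 and *ask1* replicate 3 in 7, while *ask1* replicate 3 had the highest in 42. Which mutant array was lowest or highest was not counted over all probe sets, so this order is not read as particular to the group. The largest difference of all, 3.25, belonged to 265091_s_at, a probe set shared by 2 genes, at 9.47, 6.92 and 10.21 against 5.24 and 6.00. The unnamed 262119_s_at measured 9.64, 7.99 and 10.49 against 7.11 and 7.36. In both, *ask1* replicate 2 lay more than 1 below each of the other mutants and nearest to L*er*. The group therefore holds both even differences and differences that were much larger in *ask1* replicates 1 and 3. Over the 63, the median signal was 8.74 in *ask1* replicate 1, 8.52 in *ask1* replicate 2 and 8.92 in *ask1* replicate 3, against 7.34 and 7.18 in L*er*. The part of the unlike *ask1* replicate 2 in these sizes was not tested.

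**Figure D5:**
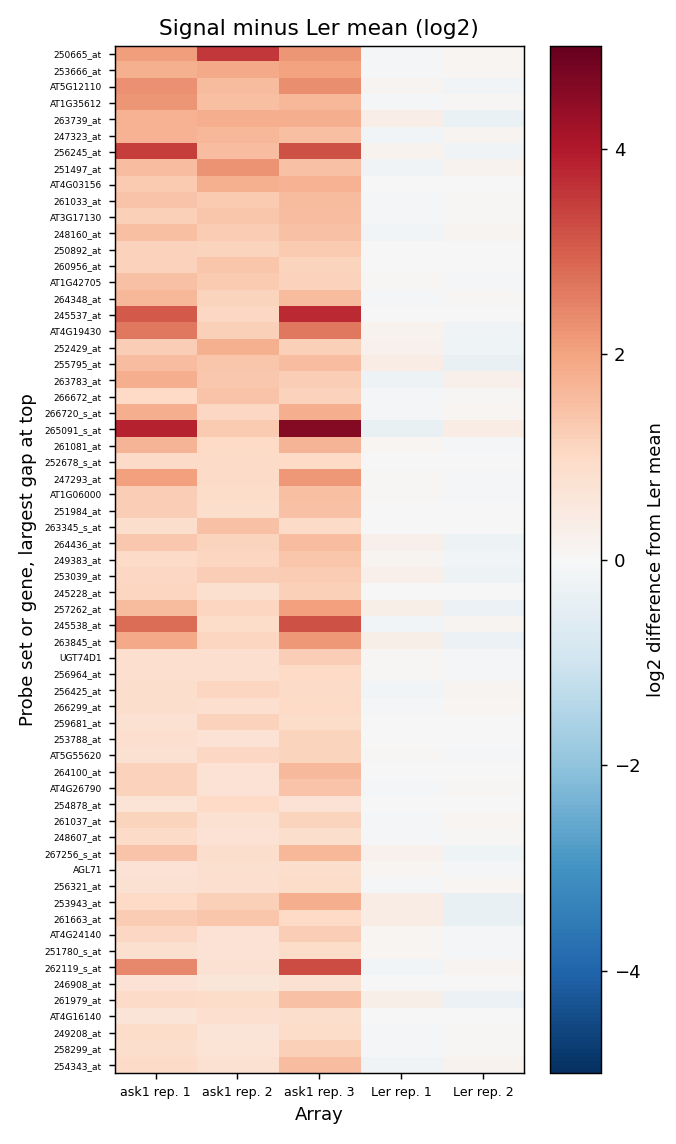
Signal of each of the 63 probe sets in each array minus its L*er* mean (log2 difference, colour scale), with the widest gap between genotypes at the top. All 3 *ask1* columns are above 0 in every row, and rows such as 245537_at and AT4G19430 are paler in *ask1* replicate 2.

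Probe sets at the edge of the limits show how gradual the boundary is. The 3 just inside were 254343_at, 258299_at and 249208_at, with gaps of 0.60, 0.60 and 0.61. The 3 just outside were 248151_at, 253259_at and AT5G21105, with gaps of 0.59, 0.57 and 0.57. A further 8 probe sets, all unnamed, had a gap of at least 0.6 but L*er* values at least 0.8 apart. They include 258321_at, at 11.92, 10.67 and 12.33 in *ask1* and 8.45 and 6.54 in L*er*, and 256266_at, at 8.91, 9.99 and 9.01 against 6.13 and 5.14, whose gaps of 2.23 and 2.78 were wider than those of any of the 63.

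Few genes of the stress and metabolic pathways looked for were named in the gene table used here. Over 7 lists of known pathway genes, 19 of 113 genes had a named probe set. Of the 19, 1 met the limits, *HYH*, which was set aside, beside 0.133% of all probe sets with 1 gene. With so few genes named, the lists say little about these pathways, and other list genes may lie among the unnamed probe sets. The study itself reports the clock genes *CCA1* and *LHY* as up-regulated in *ask1*. By list, 0 of 6 named genes met the limits for heat shock proteins and chaperones and 0 of 5 for the rapid touch and wound response. Counts were 0 of 2 for jasmonate, 0 of 2 for nitrogen uptake and assimilation, and 0 of 3 for starch and sugar phosphate metabolism. The list of light signaling and photoprotection had *HYH* as its one named gene, and no gene of the morning clock list was named. The lists were written with earlier results of these data known, so raised medians or shares in them are description and no evidence about the pathways. The median difference of a list with named genes lay between 0.49 for starch and sugar phosphate metabolism and 1.46 for *HYH* alone. Over all probe sets it was -0.01. In 8 of the 19 genes all *ask1* arrays lay above both L*er* arrays, beside 10.1% of all probe sets. Among them was the chaperone gene *HSP70-2*, at 10.49, 9.54 and 10.40 against 9.16 and 9.24, with a gap of 0.30 and *ask1* replicate 2 close to L*er*.

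Markers of cell types were sparsely named. The floral organ identity genes and the leaf markers looked for had no named probe set, so the labelled tissue was checked only by anther genes. The tapetum gene *A9* measured 8.98, 8.62 and 9.38 in *ask1* and 11.46 and 8.31 in L*er*, and *AMS*, a regulator of tapetum development, 4.80, 4.39 and 4.74 against 5.96 and 4.61. Both were higher in L*er* replicate 1 than in the other 4 arrays, so they set the L*er* arrays apart from each other. The meiotic genes *SPO11-1* and *SDS* had differences of -0.21 and -0.36, and in both the arrays of the genotypes overlapped. The limits on the 63 probe sets require similar L*er* values, and how far these anther genes bear on them was not tested.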

How the data were processed

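Unopened flower buds of 3 *ask1* and 2 L*er* samples were measured on ATH1 arrays. The deposited values are log2 signals that the authors made with RMA (background correction, quantile normalization between arrays, one value per probe set), so differences are relative to the bulk of probe sets. The number of arrays limits the precision. Probe sets were paired with genes through the platform's annotation (13513 with 1 gene, 503 with several, 8730 with none) and with chromosomes, gene order and biotypes through RefSeq's TAIR10.1 gene table, whose coordinates are not given because the array files name no build.

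Members were found in Python 3.11.15 (pandas 2.3.3) by the limits stated above. Members and gene lists were chosen with earlier results of these data known, the relatives of members after their values were seen. Every single-gene member is named, and array values are given for the 12 widest gaps. As background, limma 3.58.1 in R 4.3.3 (2-sided, Benjamini-Hochberg adjustment over 22746 probe sets, threshold 0.05) was fitted to all arrays and checked on simulated data. It called 3 probe sets (1 higher, 2 lower in *ask1*), with 898 higher and 679 lower at an unadjusted p under 0.05. Replicates are labelled biological. Alternatives were other limits, normalizations, tests, a block for replicate number, a filter on dim probe sets and leaving out each array in turn. One more, in which *ask1* replicates 1 and 3 were averaged, was chosen after seeing the data. No promoter sequence was analysed here.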

Additional observations from a re-analysis of the deposited data

How the results depend on the processing

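The number of probe sets, 63, ranged from 70 to 257 when 1 array was left out (70 without *ask1* replicate 3, 257 without L*er* replicate 1), and was 99 with a gap of 0.5 and 32 with a gap of 0.8. It was between 50 and 72 with the other settings run (no limit or a limit of 0.4 on the L*er* values, quantile normalization, median centring, the filter on dim probe sets, *ask1* replicates 1 and 3 averaged). Of the 63, 57 were kept with quantile normalization and 57 with median centring. The median difference of 1.22 ranged from 1.17 to 1.31 with 1 array left out, quantile normalization, median centring or the filter on dim probe sets. It was taken over the same 63 probe sets each time, or 62 with the filter. It was not computed for the other limits or the averaged replicates. Over the whole array limma called 3 probe sets. With 1 array left out it called 0 (without *ask1* replicate 1 or L*er* replicate 1) to 373 (without *ask1* replicate 2). It called 1 with quantile normalization and 0 with *ask1* replicates 1 and 3 averaged, and the methods' t-test called 0 after adjustment (679 higher and 649 lower at an unadjusted p under 0.05). The cause was not tested. With a replicate block it called 2. Arrays with the same replicate number had correlations of -0.26 and -0.01 between their deviations from the group means, so nothing shows that the numbers pair the arrays. Signals under 5, where 22.8% to 24.5% of probe sets per array lie, limit what can be seen of dim loci.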
